A study of Mus musculus with 16 samples.

Results

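The comparison described here set RNA pulled down with THOC5 from cells that overexpressed THOC5 (THOC5 OE) against RNA pulled down with THOC5 from cells that overexpressed GFP (GFP OE). Its members were the 15141 peaks of 4 deposited lists, of 28998 peaks in the 8 lists of the series. THOC5 OE 1 and 2 held 4618 and 4240 peaks, and GFP OE 1 and 2 held 3711 and 2572. All 4 came from primary mouse vascular smooth muscle cells in osteogenic medium, written as Pi in the labels. The THOC5 OE cells carry the genotype label of THOC5 overexpression and the GFP OE cells are labelled wild type with GFP as the overexpressed control, so both sides carried an overexpression and both were in osteogenic medium. The vector, its promoter, the age and sex of the animals and the amount of THOC5 protein were not given in the sources used here. The other 4 lists, called the unmodified lists below, came from cells without overexpression, 2 in growth medium (Ctrl) and 2 in osteogenic medium (Pi), and they serve only to show whether a site or gene also had a peak there. The other 8 of the 16 samples are inputs, which were not analysed here.

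THOC5 belongs to the THO complex, which travels with RNA polymerase and, as part of the TREX complex, hands finished mRNA to the export receptor at the nuclear pore. Vascular smooth muscle cells contract the vessel wall, and in high phosphate they can lose their contractile genes and take on features of bone-forming cells. RNA immunoprecipitation with sequencing recovers the RNA that comes down with an antibody, and a peak is a stretch of the genome where the reads of that RNA pile up. A peak in an intron therefore comes from RNA that still held the intron, or from another RNA of the same place. A transcript with more copies can give more and higher peaks at the same binding, and levels of RNA in the inputs were not used.

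The number of sites with a peak on one side only was larger for THOC5 OE. Peaks that overlapped by 1 base or more, in any of the 4 lists, were merged into 7922 sites. Of these, 647 (8.17%) had a peak in THOC5 OE 1 and 2 and none in GFP OE, 110 (1.39%) had a peak in GFP OE 1 and 2 and none in THOC5 OE, and 1012 were in all 4. With each list cut to its 2572 highest scores, the length of GFP OE 2, the counts were 284 (5.41%) and 105 (2%) of 5252 sites. The excess of sites on the THOC5 OE side was thus smaller but still present in lists of one length. The rule asks for a peak in both lists of a side, and lists of one length do not make the 2 sides alike in this. In them the THOC5 OE pair shared 1684 sites and the GFP OE pair 1065. How far this shaped the counts was not tested. The rule sets 2 lists against 2, and leaving out any 1 list raised the counts of the full lists by over 1.5 times, to 1052 to 1903 for THOC5 OE and 183 to 1271 for GFP OE.

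Sites at the start of genes, which HOMER puts in the class promoter-TSS, were among those on the THOC5 OE side. This class took 24 of the 647 THOC5 OE sites (3.71%), 1 of the 110 GFP OE sites (0.909%) and 168 of all 7922 sites (2.12%), where a site takes the class of its highest-ranked peak. Of those 24, 17 (70.8%) had no peak in any unmodified list, against 107 (60.5%) of the 177 sites with any peak of this class. Over the peaks of each list the class took 2.43% and 2.33% in THOC5 OE against 1.48% and 2.06% in GFP OE, and in lists of one length 1.67% and 1.87% against 1.21% and 2.06%, where the sides overlapped. The exact permutation test of the full lists gave p = 0.333, the smallest that 2 lists against 2 allow (two-sided; adjusted p = 0.889 over 8 classes).

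The promoters of 3 genes that RefSeq (GRCm38.p6) matched to such a site, chosen after their values were seen, show how a site lies against the start. Each runs from 250 bases before the start to 50 after it, and capitals mark the bases that lie under the site.
Ccdc77 promoter (chr6:120364320-120364619, minus strand; site chr6:120364500-120365038, percentiles 91.1 and 91.9 in THOC5 OE): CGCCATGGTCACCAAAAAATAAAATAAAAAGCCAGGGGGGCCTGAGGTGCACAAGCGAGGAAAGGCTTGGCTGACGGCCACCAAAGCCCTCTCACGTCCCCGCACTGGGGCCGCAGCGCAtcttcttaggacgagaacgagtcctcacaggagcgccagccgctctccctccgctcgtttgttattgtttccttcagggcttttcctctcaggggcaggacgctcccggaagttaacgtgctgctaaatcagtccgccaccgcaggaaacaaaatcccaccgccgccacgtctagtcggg
Smarcad1 promoter (chr6:65042956-65043255, plus strand; site chr6:65042783-65043321, percentiles 63.7 and 63.2 in THOC5 OE): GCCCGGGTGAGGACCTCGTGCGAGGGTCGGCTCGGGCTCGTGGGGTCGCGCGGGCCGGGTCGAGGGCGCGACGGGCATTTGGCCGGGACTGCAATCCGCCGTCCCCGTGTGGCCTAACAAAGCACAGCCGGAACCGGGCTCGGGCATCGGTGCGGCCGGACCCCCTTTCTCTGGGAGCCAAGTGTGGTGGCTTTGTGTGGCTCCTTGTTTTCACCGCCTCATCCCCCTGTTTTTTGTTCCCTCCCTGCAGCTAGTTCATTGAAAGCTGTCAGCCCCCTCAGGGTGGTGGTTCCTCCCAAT
Lnpep promoter (chr17:17624440-17624739, minus strand; site chr17:17624565-17625103, percentiles 59.3 and 59.6 in THOC5 OE): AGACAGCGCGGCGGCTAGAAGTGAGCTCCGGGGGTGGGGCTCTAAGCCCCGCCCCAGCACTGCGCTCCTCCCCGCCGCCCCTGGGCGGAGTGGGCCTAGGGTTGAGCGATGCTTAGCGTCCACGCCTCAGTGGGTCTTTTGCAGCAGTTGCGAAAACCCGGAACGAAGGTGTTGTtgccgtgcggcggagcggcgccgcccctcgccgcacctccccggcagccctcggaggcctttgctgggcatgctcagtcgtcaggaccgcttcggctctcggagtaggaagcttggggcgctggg
The site at Ccdc77 covered the first 120 of the 300 bases, the site at Lnpep the first 175 and the site at Smarcad1 the whole window. At Ccdc77 and Lnpep the bases after the start were outside the site. The site at Ccdc77 also had a peak in 3 unmodified lists and the site at Smarcad1 in 1, while the site at Lnpep had none there. Among all 24 sites, 15 overlapped in RefSeq only a gene other than the one the annotation gave, 8 overlapped the annotated gene and 1 overlapped none. The same held for 100 of the 177 sites with any peak of this class (56.5%), so it was not seen at the THOC5 OE sites alone. The site at Ccdc77, for example, lies in Kdm5a, a histone demethylase gene, the site named for Fam120aos lies in Fam120a, and the site named for Ikbip lies in Apaf1. No strand was recorded in the lists, so RNA of the 2 genes at such a start cannot be told apart. Promoter sequences were matched for 13 of the 24 sites. The letters GGGCGG, searched on both strands, were in 8 of these 13 (61.5%), in 73.8% of the promoters matched to any of the 177 sites and in 35.7% of the 32851 promoters of the table. The letters CCAAT were in 30.8%, 27.4% and 37.4% of the same sets. Median GC content was 65.7%, 66.7% and 52.7%, so the THOC5 OE sites differed little from other sites of the class.

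One site of this class lay over a microRNA hairpin, Mir7225, inside Pde4dip, a scaffold protein gene of the centrosome and Golgi. The site (chr3:97690198-97690736) had percentiles of 15.5 and 13.6 in THOC5 OE and no peak in the other 6 lists. A percentile is the rank of a peak's score within its list, with 100 for the highest. The mature sequences are shown because no other hairpin of the table lay under a site found in both lists of one side and neither of the other, with the seed (bases 2 to 8) in capitals.
miR-7225-3p (chr3:97690509-97690530, minus strand): cUUCUAGAcagccucugcagca
miR-7225-5p (chr3:97690543-97690562, minus strand): aCGUAGACuguguagaagcc
A peak of this width holds much more than the hairpin, so it does not show that the microRNA itself was recovered.

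**Figure D1:**
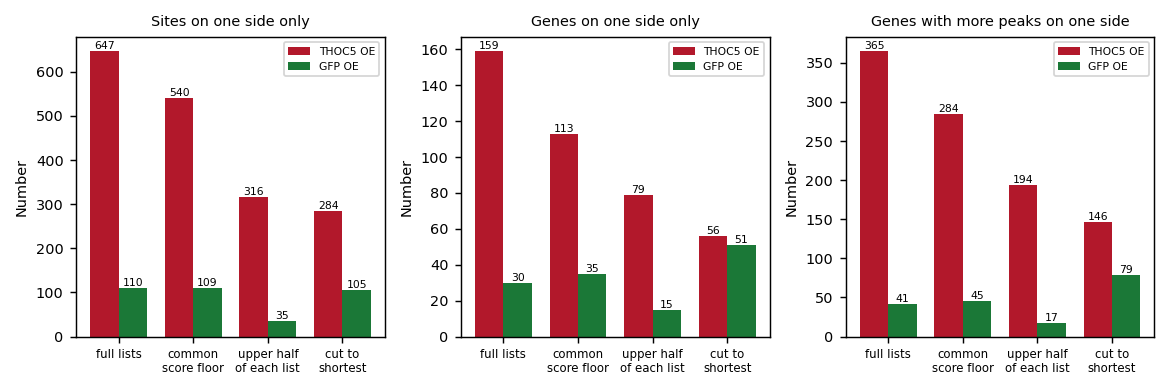
Number of sites (left) and genes (middle) with a peak in both lists of one side and neither list of the other, and of genes with more peaks in both lists of one side than in either list of the other (right); red bars are THOC5 OE and green bars GFP OE, under 4 ways of trimming the lists. The THOC5 OE bars were higher in the full lists (647 against 110 sites), and in lists cut to one length the bars of genes on one side only came close together (56 against 51) while those of genes with more peaks did not (146 against 79).

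For genes bound on one side only, the excess nearly vanished in lists of one length. A gene counted as bound where a list placed at least 1 peak in its exons, introns, UTRs or transcription end. Bound genes numbered 1649 and 1688 in THOC5 OE against 1423 and 1230 in GFP OE, which is 1.26 times as many (1668.5 ± 27.6 against 1326.5 ± 136, SD, n = 2 each; exact permutation p = 0.333, two-sided). Cut to 2572 peaks, they held 957 and 1057 against 973 and 1230, a ratio of 0.914 (exact permutation p = 0.667), so the order turned. Of 2508 genes bound in any list, 159 (6.34%) were bound in THOC5 OE 1 and 2 alone and 30 (1.2%) in GFP OE 1 and 2 alone. Cut to one length, these counts were 56 (3.1%) and 51 (2.82%) of 1807. Of the 56, 49 were also set apart in the full lists, against 21 of the 51 on the GFP OE side.

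The 4 lists did not pair up by condition to the same degree. THOC5 OE 1 and 2 shared 2595 sites, 56.2% of the first and 61.2% of the second. GFP OE 1 and 2 shared 1331 sites, 35.9% and 51.7%, with a Jaccard index (shared sites over all sites of the pair) of 0.269, the lowest of the 6 pairs. Pairs across the sides had indices of 0.303 to 0.347, and the THOC5 OE pair 0.414. In lists of one length the THOC5 OE pair was again highest (0.487) and the GFP OE pair lowest (0.261).

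How often a peak was found again fell with its rank. Of the 500 highest peaks of THOC5 OE 1, 78.6% had a peak in THOC5 OE 2, 72.2% in GFP OE 1 and 59.2% in GFP OE 2. Of its peaks of rank 4001 to 4500, the shares were 36%, 13.4% and 8.2%. Of the 500 highest peaks of GFP OE 2, 87.2% and 87.4% had a peak in the THOC5 OE lists and 73.2% in GFP OE 1. A missing peak was thus common even among high ranks and within a side, and 3872 of the 7922 sites were in 1 list only. The peaks beyond rank 2572 were more often intronic (65.8% and 67.7% in THOC5 OE, 63.0% in GFP OE 1) than the first 2572 (53.9%, 55.2% and 53.0%, with 61.5% in GFP OE 2).

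**Figure D2:**
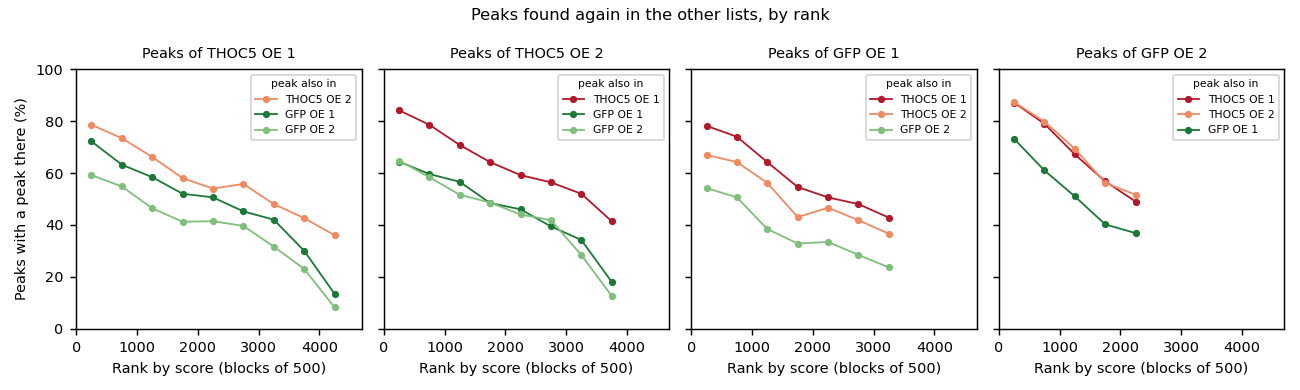
Share of peaks (y axis, percent) of each list that had an overlapping peak in each of the other 3 lists, by blocks of 500 ranks of the score (x axis, rank 1 highest); each panel is 1 list and each line 1 other list. All lines fall with rank, and peaks of GFP OE 2 were found more often in both THOC5 OE lists (87.2% and 87.4% in the first block) than in GFP OE 1 (73.2%).

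Sites of the THOC5 OE side lay mostly in genes that the GFP OE lists also held. Of the 647 sites, 613 were in genes, 457 genes in all, and 360 of the 613 (58.7%) were in a gene bound in both GFP OE lists, 128 in a gene bound in 1 and 125 in a gene bound in neither. For the 110 GFP OE sites, 107 were in genes and 73 of them (68.2%) in a gene bound in both THOC5 OE lists. Of the 647, 334 (51.6%) had no peak in an unmodified list, against 48.3% of all sites, 43.6% of the GFP OE sites and 10.7% of the sites of all 4 lists. The share is thus near that of all sites. The 647 were of middling and low rank, with a median percentile of 36.3 (34.6 for the 110).

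Some of the 647 were of high rank. In 47 of them (7.26%) both percentiles were 90 or more, against 2 of the 110 for GFP OE. Of all 7922 sites, 501 (6.32%) reached 90 in every list that had them, and of the 1012 sites in all 4 lists 167 did (16.5%), so the share on the THOC5 OE side was near that of all sites. Percentile 90 also takes in more peaks in the longer THOC5 OE lists. Of these 47, 29 lay in coding exons, 5 in 3′ UTRs and 7 in introns. In 31 of them at least 1 unmodified list also had the peak, and in 16 none did. The nearest GFP OE peak lay at least 70 bp away, with a median of 14947 bp, and it was within 1000 bp in 6.

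The highest was in Kmt2a, which encodes a histone H3 lysine 4 methyltransferase. The site in exon 3 of 36 (chr9:44848991-44849567) stood at percentiles of 99.2 and 99.3 in THOC5 OE and at 98.8, 99.1, 99.1 and 99.1 in Ctrl 1, Ctrl 2, Pi 1 and Pi 2. Both GFP OE lists lacked it, yet they held 3 and 2 other peaks in Kmt2a, the nearest 882 and 810 bp away. Arhgef17, which encodes a guanine nucleotide exchange factor, had the same pattern in exon 1 of 21 (chr7:100928871-100929441; 99.0 and 99.3), with percentiles over 99 in all 4 unmodified lists and a GFP OE 1 peak 632 bp away. Smg1, the kinase that starts nonsense-mediated mRNA decay, had it in its 3′ UTR (chr7:118134785-118135323; 98.4 and 98.5), again in all 4 unmodified lists, while the GFP OE lists held 4 peaks each elsewhere in the gene. At these 3 sites the GFP OE lists, and not the THOC5 OE lists, stood apart from the other 6. This held for the sites and not for the whole genes Kmt2a and Smg1. Their best peaks in GFP OE 1 and 2, elsewhere in the gene, stood at percentiles of 99.1 and 99.3 in Kmt2a and 97.3 and 96.6 in Smg1. Tns3, a tensin that joins integrins to actin (exon 17 of 31, chr11:8492478-8493064; 98.4 and 98.4), had the site in 3 unmodified lists. The site in exon 77 of 146 of Syne1, a nesprin (chr10:5228853-5229391; 97.9 and 98.4), had it in 2 and lay 70 and 363 bp from GFP OE peaks.

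Other leading sites had no peak in any unmodified list. Tulp4, a tubby-like gene with a SOCS box, had its site in the 5′ UTR (chr17:6138117-6138890; 99.0 and 99.1), and the gene had no GFP OE peak at all. Zc3h11a, which encodes a zinc finger protein of the TREX complex, had it in exon 12 of 17 (chr1:133626890-133627428; 98.8 and 98.8), with 2 and 1 GFP OE peaks elsewhere in the gene. Mprip, which binds myosin phosphatase to actin, had it in exon 7 of 24 (chr11:59737310-59737848; 98.2 and 98.5). These sites were in the top 2% of both THOC5 OE lists and in no other list. Stat2, an interferon signalling factor, had it in the 3′ UTR (chr10:128292031-128292594; 97.9 and 98.3), 125 bp from a GFP OE 1 peak.

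The leading GFP OE sites ranked lower. The first was in the 3′ UTR of Alpk1, a kinase that senses a bacterial sugar (chr3:127670281-127670931; 95.9 and 95.1), with a peak in Ctrl 2 and Pi 2. Cluh, which binds mRNA of mitochondrial proteins, followed (3′ UTR, chr11:74669657-74670186; 88.1 and 90.5), then Zcchc7, a cofactor of nuclear RNA decay (3′ UTR, chr4:44931368-44931897; 87.8 and 90.1). The other 7 were in the RNA helicase gene Dhx57, Nav2, BC034090, the actin regulator gene Limk2, the chromatin remodeler gene Atrx, the dystrophin relative Utrn and the repair gene Ercc6, with percentiles of 71.6 to 86.0. Of these 10 genes, 9 had at least 1 peak elsewhere in both THOC5 OE lists, the exception being Zcchc7 (0 and 1). Dhx57 and Limk2 were the 2 whose site had no peak in an unmodified list.

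**Figure D3:**
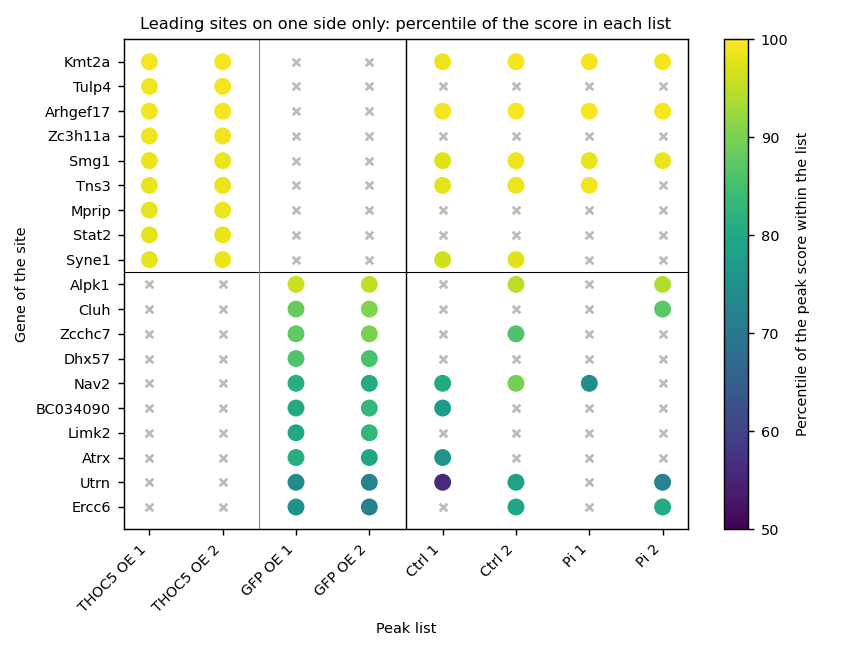
Percentile of the peak score (colour, 50 to 100) of 9 leading sites found in THOC5 OE 1 and 2 alone of the 4 lists (above the line) and the 10 found in GFP OE 1 and 2 alone (below it), by gene (rows) in each of the 8 lists (columns); a cross means no peak. The sites of Kmt2a, Arhgef17 and Smg1 were high in 6 lists and missing in GFP OE 1 and 2, while those of Tulp4, Zc3h11a, Mprip and Stat2 were in THOC5 OE 1 and 2 alone.

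The sites at the top of all 4 lists were alike on both sides. Dst, a plakin that links cytoskeletal filaments, was first in each of the 4 (percentile 100). Nisch, which encodes an integrin-binding protein of endosomes, had 2 sites between 99.8 and 100, and Ogt, the enzyme that adds single sugar groups to nuclear proteins, a 3′ UTR site (chrX:101682376-101682946) between 99.8 and 99.9. The rank correlation of scores over the 806 sites common to the 4 cut lists was 0.989 for the THOC5 OE pair, 0.973 for the GFP OE pair and 0.960 to 0.972 across the sides (Spearman's rank correlation, a description over sites, which share their lists).

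More genes had more peaks in THOC5 OE than the reverse. Both THOC5 OE lists held more peaks than either GFP OE list in 365 of 2508 genes (14.6%), and both GFP OE lists held more in 41 (1.63%). In lists of one length the counts were 146 (8.08%) and 79 (4.37%) of 1807, and 139 of the 365 kept their direction while 8 turned. Of the 365, 206 were also bound in a GFP OE list. A difference of 2 or more peaks between the nearest lists was found in 78 of the 365 and in 1 of the 41. Genes with more peaks in THOC5 OE spanned a median of 114274 bp, genes with more in GFP OE 47926 bp, all 2508 genes 66723 bp and the 719 genes of all 4 lists 103057 bp, and a longer gene has more room for peaks.

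The gap was largest in long genes with many weak peaks. Csmd1, a complement regulator gene of 1642848 bp, held 28 and 27 peaks in THOC5 OE against 4 and 0 in GFP OE, but 19 to 31 in the unmodified lists. The GFP OE lists were thus low, and the THOC5 OE lists lay within the range of cells without overexpression. Cfap47, a gene of cilia and flagella, held 25 and 22 against 17 and 5, and 0 to 8 in the unmodified lists. Bbs9, a subunit of the BBSome that sorts cargo into cilia, held 11 and 9 against 2 and 2, and 0 to 3 there. Ulk4 held 10 and 7 against 1 and 2, and none in the unmodified lists. In these 3 genes the THOC5 OE lists were above all other lists. Tnik, a kinase of Wnt signalling, held 13 and 10 against 3 and 2, and Dscam, an adhesion gene, held 6 and 5 against 0 and 0. Tln2, a talin that joins integrins to actin, held 12 and 10 against 3 and 3, with 3 to 12 in the unmodified lists. Cep112 (7 and 7 against 1 and 1), Scaper (11 and 11 against 6 and 3) and Snx29 (5 and 8 against 0 and 0) complete the 10.

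These peaks were weak. The 10 genes held 244 peaks in the THOC5 OE lists, of which 184 (75.4%) were intronic and 19 were among the first 2572 of their list, and the median percentile of a gene's peaks was 2.64 to 43.7. The intron share was lower in some: 7 of 13 and 5 of 10 peaks in Tnik, 6 of 10 and 3 of 7 in Ulk4, and 4 of 6 and 2 of 5 in Dscam. With exons and UTRs only, gaps of 4 (Tnik), 3 (Ulk4), 2 (Dscam) and 2 (Csmd1) remained, and the other genes of the 10 had none. With the authors' nearest gene in place of the annotated transcript, the gap of Csmd1 between the nearest lists fell from 23 peaks to 0. In lists of one length Csmd1 held 2 and 1 against 0 and 0, Cfap47 turned (1 and 1 against 3 and 5), and Bbs9, Tln2, Ulk4, Snx29 and Dscam held none in THOC5 OE. Sites on the THOC5 OE side gathered in such genes: 30 genes held 3 or more of them, led by Csmd1 with 18, Bbs9 and Cfap47 with 7 each and Tnik with 6. No gene held 3 or more GFP OE sites.

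Fewer peaks in THOC5 OE were found mainly as a gap of 1. Atad2b, a bromodomain gene, held 2 and 2 in THOC5 OE against 8 and 4 in GFP OE, with 0 to 6 in the unmodified lists, and 1 and 2 against 7 and 4 in lists of one length. Tet2, which oxidises 5-methylcytosine, held 1 and 1 against 2 and 3. Kdm6a, a histone H3 lysine 27 demethylase, held 1 and 1 against 3 and 2. Both kept that order in lists of one length. Atad5, Cnst, Depdc5, Mrtfb, Nynrin, Phlpp2 and Rasa2 had gaps of 1 peak. Mrtfb, a cofactor of serum response factor that acts on contractile genes, held 0 and 0 against 1 and 2.

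**Figure D4:**
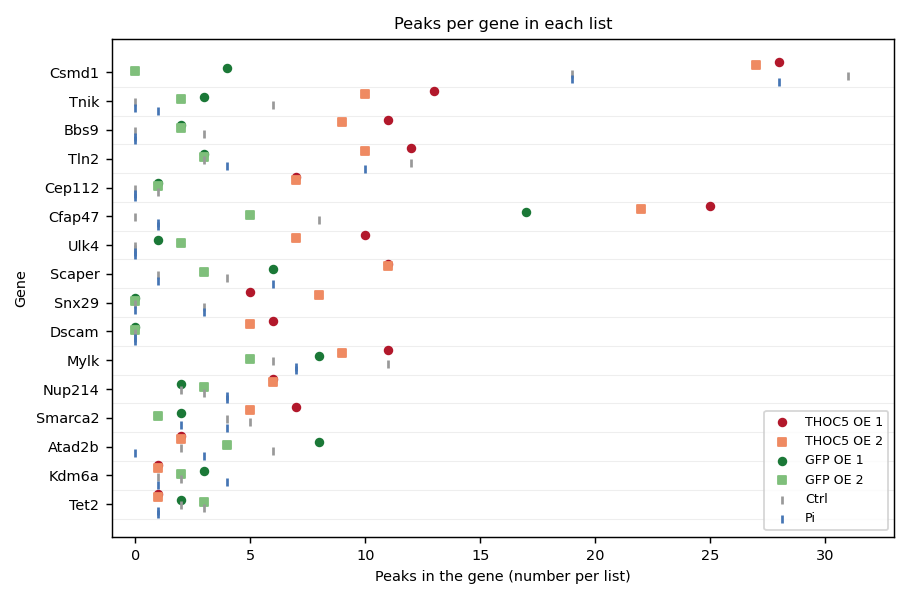
Peaks per list (x axis) in 16 genes (rows): red symbols are THOC5 OE 1 and 2, green symbols GFP OE 1 and 2, grey ticks Ctrl and blue ticks Pi. Csmd1 held 28 and 27 peaks under THOC5 OE, 4 and 0 under GFP OE and 19 to 31 in the unmodified lists, whereas Bbs9, Ulk4 and Dscam were high in THOC5 OE alone.

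Among genes of mRNA export, the field of the THO complex, nuclear pore genes made up the change. Of 34 genes on the list, 16 were bound in any of the 4 lists, 4 held more peaks in THOC5 OE (25% of the bound, against 14.6% of all genes) and 1 held more in GFP OE (6.25%, against 1.63%). Nup214, on the cytoplasmic face of the pore, held 6 and 6 peaks against 2 and 3, with 2 to 4 in the unmodified lists and the same counts in lists of one length. Nup188, of the inner ring, held 3 and 3 against 1 and 2, with 1 to 3 in the unmodified lists. Nup153, of the nuclear basket, held 2 and 2 against 0 and 1, with 0 to 2 in the unmodified lists. For Nup188 and Nup153 the THOC5 OE lists thus lay within the range of cells without overexpression. Nup214, Nup188 and Nup153 kept their order in lists of one length. Nup133 held 1 and 1 against 0 and 0 in the full lists, and Nup160, of the same outer ring, held 0 and 0 against 1 and 1. Of the THO subunits, Thoc2 was bound in all 4 lists, and Thoc5 itself had no peak in any of them, so the lists do not check the overexpression. The median difference in peaks (mean of THOC5 OE minus mean of GFP OE) was 0.25 over the 16 genes and 0.5 over all 2508.

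Among the 23 gene lists, chosen with earlier results of these data known, the chromatin list was bound most completely. Of 49 on the list, 43 were bound and 30 were in all 4 lists. In the full lists more peaks in THOC5 OE were found in 6 (14.0% of the bound), near the share of all genes there. Fewer were found in 2, Kdm6a and Tet2 (4.65%, beside 1.63% of all genes). The counts of 6 and 2 were the same in lists of one length, where the shares of all genes were 8.08% and 4.37%. Smarca2, a catalytic subunit of the SWI/SNF remodeler, held 7 and 5 against 2 and 1, and 2 to 5 in the unmodified lists. Chd2, another remodeler, held 5 and 3 against 1 and 2. Bptf, Setd1a, Kmt2e and Atf7ip also held more. Kmt2e and Atf7ip were bound in THOC5 OE only, with 1 peak a list.

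Of 23 bound kinesin, dynein and myosin genes, 7 (30.4%) held more peaks in THOC5 OE and none more in GFP OE, beside 14.6% and 1.63% of all genes. In lists of one length the counts were 4 and 1, beside 8.08% and 4.37% of all genes in those lists. Myh10, a nonmuscle myosin heavy chain, and the kinesin genes Kif5b and Kif14 were bound in THOC5 OE and not GFP OE, with 1 peak a list. Myh10 had 2 peaks in each unmodified list and Kif5b 1 in 3 of them, so for these the GFP OE lists were the low ones, while Kif14 had none there. Kif13a held 7 and 5 against 3 and 3. Of 23 bound plakin, spectrin and linker genes, 6 held more in THOC5 OE (Ank2, Ank3, Tln2, Map4, Clasp1 and Clip1; 26.1%) and none the reverse. But in lists of one length 3 held more in THOC5 OE and 4 in GFP OE, beside the same 8.08% and 4.37% of all genes. Ank3, an ankyrin, held 9 and 8 against 5 and 3 and kept that order (9 and 8 against 4 and 3). Map4, which stabilises microtubules, was bound in THOC5 OE only.

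On the THOC5 OE side, trafficking and ubiquitin genes of the full lists were close to the background of 14.6% of all genes. Of 28 bound trafficking genes, 5 (17.9%) held more peaks in THOC5 OE and 1, Sec24c, in GFP OE (3.57%, beside 1.63% of all genes). Arfgef1, an activator of the Arf GTPases of the Golgi, held 6 and 4 against 2 and 2, and Copa, a coat subunit of vesicles that return to the endoplasmic reticulum, was bound in THOC5 OE only. Of 33 bound ubiquitin genes, 4 (12.1%) held more in THOC5 OE and 2 (6.06%) in GFP OE. Ubr1 held 8 and 5 against 3 and 3. In lists of one length, 3 trafficking genes held more in THOC5 OE and 2 in GFP OE. For ubiquitin genes the counts there were 5 and 2, and the shares of all genes were 8.08% and 4.37%. Replication and repair genes went 2 to each side of 19 bound (10.5% each), below the share of all genes for THOC5 OE and above it for GFP OE. In lists of one length 0 held more in THOC5 OE and 5 in GFP OE, beside 8.08% and 4.37% of all genes in those lists. Mcm6, a subunit of the replicative helicase, was bound in THOC5 OE only, while Rfc1, of the clamp loader, and Mlh3, a mismatch repair gene, were bound in GFP OE only.

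Decay, splicing and translation genes each had 1 member with more peaks in THOC5 OE and none the reverse. Of 19 bound decay genes it was Smg1 (5 and 6 against 4 and 4; 5.26% of the bound), of 15 bound splicing genes Rbm5 (2 and 1 against 0 and 0; 6.67%), and of 6 bound ribosomal and initiation factor genes Eif4g3 (7 and 6 against 5 and 5; 16.7%), beside 14.6% of all genes.

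Genes of the smooth muscle and bone programs were hardly in the lists. Of 12 contractile markers only Mylk had a peak in any of the 4 lists, so the labelled cell type could be checked by 1 marker alone. Of a longer list of 20 contractile genes 2 were bound, Mylk with more peaks in THOC5 OE. Of 18 bone and cartilage genes 2 were bound, and none set the sides apart. Runx2, the master factor of bone formation, had 1 peak in GFP OE 2, and 1 in each Pi list of cells without overexpression. Of 12 endothelial markers Flt1 and Nos3 had peaks in THOC5 OE 2 alone (4 in all), of 12 leukocyte markers Csf1r had 1 there, and of 13 fibroblast markers none had a peak. Whether other cell types had a part in the differences was not tested.

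Inflammatory and matrix lists each had 2 genes bound in THOC5 OE only, 25% of the 8 bound inflammatory and 12.5% of the 16 bound matrix genes, beside 6.34% of all genes. Of the 8 bound inflammatory genes, Irak1, a kinase downstream of the interleukin-1 receptor, and Nod1, a sensor of bacterial cell wall, held 1 and 1 against 0 and 0, and both kept this in lists of one length. Of 16 bound matrix genes, Lama4 (5 and 1) and Lama5 (1 and 1), laminin chains of the basement membrane, were bound in THOC5 OE only, Lama5 also in lists of one length. Nod1 and Lama5 had 1 or more peaks in every unmodified list, so it was their absence in GFP OE that set them apart. Of 15 bound adhesion and guidance genes, Robo1, a receptor of Slit ligands (2 and 3 against 0 and 0), and Csmd1 held more peaks in THOC5 OE, while Itgb1, the common beta chain of integrins, and Slit3, a Slit ligand, were bound in GFP OE only, with 1 peak a list. The share with more peaks was 13.3% each way, beside 14.6% of all genes for THOC5 OE and 1.63% for GFP OE. The immediate early list of 17 genes had no bound member. The TGF-beta and BMP list (5 bound of 29), the Wnt list (7 of 29), the phosphate list (1 of 17) and the nuclear long noncoding list (1 of 13, Firre) had none with more peaks on either side.

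Where all 4 lists held a site, the contractile gene Mylk showed the largest shift in rank. Mylk encodes myosin light chain kinase, which starts smooth muscle contraction. Its site in exon 16 of 32 (chr16:34921664-34922387) ranked 833 and 702 in the THOC5 OE lists and 2379 and 1579 in the GFP OE lists, with rank 1 the highest score. Its site in the 3′ UTR (chr16:35000537-35001429) ranked 1107 and 920 against 2391 and 1671. Both sites thus ranked higher in THOC5 OE, with no overlap. In the unmodified lists the exon 16 site had percentiles of 80.5 to 92.1, and the best peak of Mylk had percentiles of 82.0 and 83.5 in THOC5 OE and 36.6 and 38.7 in GFP OE. The 3′ UTR site had 89.5 in Ctrl 2 and 77.2 in Pi 1 and no peak in Ctrl 1 and Pi 2. Peaks in Mylk numbered 11 and 9 against 8 and 5, with 6 to 11 in the unmodified lists. The percentiles of the best peak in THOC5 OE thus lay within the range of the exon 16 site in cells without overexpression, and those in GFP OE lay below it.

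Ranks within whole lists depend on what else the list holds. Of the 806 sites in all 4 cut lists, 24 (2.98%) ranked higher in both THOC5 OE lists and 381 (47.3%) in both GFP OE lists by list rank. Without GFP OE 2 these counts were 344 and 761, over the longer lists and larger set of sites then shared. Ranked among these 806 sites alone, an alternative added after these counts were seen, 184 (22.8%) and 186 (23.1%) did. This scale gives every list the same set of ranks, so it largely evens out a lean to one side by construction. The near-even split therefore cannot show whether the lean to GFP OE by list rank lay in these sites. On this scale the Mylk sites ranked 368 and 323 against 794 and 784, and 463 and 419 against 798 and 795. They led the THOC5 OE side on both scales, followed on both by an intronic site of Adamts9, a protease of the versican matrix (chr6:92872297-92872883; 234 and 258 against 433 and 467), and an exon 7 site of Etl4 (369 and 393 against 547 and 572). Kalrn and Tns3 completed the 6 leading sites by common rank, and Rab3gap2 and Prex2 were the others by list rank.

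In some genes all common sites ranked the same way. All 6 common sites of Kalrn, a guanine nucleotide exchange factor, ranked higher in THOC5 OE among the 806, as did all 6 of Nav2, a microtubule-binding navigator, and all 5 of Atrnl1. Syne2, a nesprin, had 7 of 10 higher in THOC5 OE and none higher in GFP OE, and Lrba, of vesicle trafficking, 6 of 8 and none. Pkhd1l1, a large membrane protein, had all 6 higher in GFP OE, for example exon 70 of 78 (chr15:44581816-44582465), with ranks of 434 and 504 in THOC5 OE against 251 and 252. Syne1 had 12 of 24 higher in GFP OE and none the reverse, the opposite of Syne2. Firre, a nuclear long noncoding RNA, had 5 of 7 higher in GFP OE. Ovgp1 had a site in exon 11 of 11 with 778 and 767 against 605 and 592. Of 74 genes with 3 or more common sites, 24 had sites higher in THOC5 OE only, 23 in GFP OE only, 17 in both directions and 10 in neither. All sites of a gene ranked one way in 9 of the 74. Those not named above were Dop1b and Wdfy3 (3 sites each), higher in THOC5 OE, and Mdn1 (5 sites), Anks1b (4) and the THO subunit gene Thoc2 (3), higher in GFP OE. In 18 of the 47 genes with 1 direction only 1 site was shifted. Mylk, Kalrn, Adamts9, Pkhd1l1, Ovgp1, Tns3 and Syne1 were named by the rule for leading sites. Nav2, Atrnl1, Syne2, Lrba, Firre, Dop1b, Wdfy3, Mdn1, Anks1b and Thoc2 were chosen here after their values were seen. Sites of one gene share its RNA, so they are not independent, and the level of each RNA in the inputs was not set against these ranks.

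**Figure D5:**
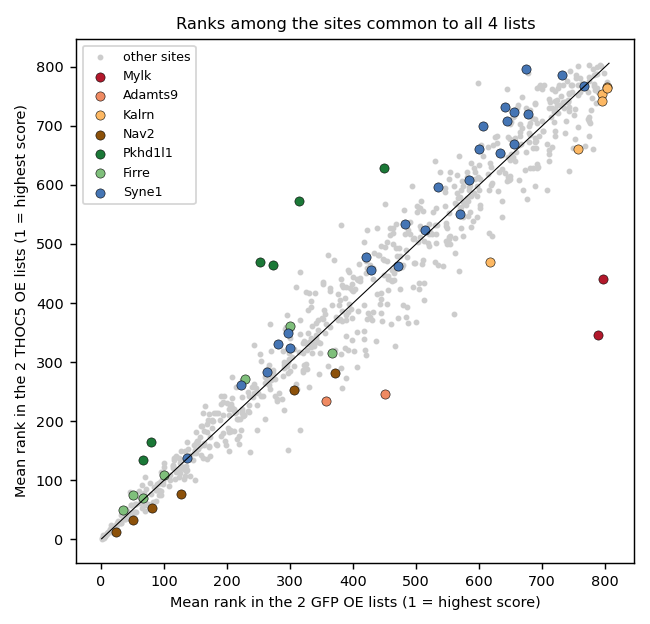
Mean rank of the score in the THOC5 OE lists (y axis) against that in the GFP OE lists (x axis) for the 806 sites in all 4 cut lists, ranked among these sites with 1 the highest; the line marks equal ranks and coloured points are sites of 7 genes. The 2 Mylk sites lie farthest below the line, all 6 Pkhd1l1 sites lie above it and all 6 Kalrn and 6 Nav2 sites lie below it.

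The main classes of peaks overlapped between the sides. Introns took 59.2% and 60.1% of peaks in THOC5 OE against 56.0% and 61.5% in GFP OE, coding exons 28.4% and 26.7% against 31.2% and 26.2%, and 3′ UTRs 5.76% and 6.34% against 7.14% and 5.05%. In 3 small classes the full lists did not overlap: promoter-TSS, as given above, 5′ UTRs (0.888% and 0.849% against 0.916% and 0.894%) and non-coding exons (1.17% and 1.13% against 1.19% and 1.59%), and in lists of one length none of the 3 stood apart. The mean difference for introns was 0.859 percentage points (exact permutation p = 1), and without GFP OE 1 it turned to -1.87. The exact permutation tests of the classes gave p of 0.333, the smallest they allow, for these 3 and more for the others (adjusted p of 0.889 or more over the classes). Peaks on transposon repeats made up 6.41% and 7.69% against 5.77% and 8.59%, which overlapped too.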

How the data were processed

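THOC5 RNA immunoprecipitation was represented by 2 deposited peak lists a side, matched to samples by the condition's abbreviation and number in the file headers. FastQC, Bowtie2, MACS2, SAMtools and mm10 are named, without roles, per the submitters' processing notes, and HOMER annotated the peaks against mm10, per the file headers. The peak caller's settings and the use of inputs were not given in the sources used here. The deposited score of each peak is the authors'; its scale is not given, so it ordered peaks within lists, apart from 1 alternative that sets a common floor. Each list has a single peak width (420 to 538 bp). The lists hold no counts, so depth is unknown and no interval or floor was computed.

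Peaks that overlapped by 1 base or more were merged, and the transcript in parentheses of the annotation gave the gene (RefSeq symbols for 14907 of 14923 peaks with a transcript, 99.9%). A gene counted as bound through peaks in introns, exons (of noncoding genes too), UTRs or transcription ends, not through the promoter class. Lists were also cut to 2572 peaks; scores were tied at the last rank inside and the first outside (44.4, 39.3 and 30.7 in THOC5 OE 1, THOC5 OE 2 and GFP OE 1), and ties were broken by position. Single values were tested by exact permutation of the 4 lists (6 assignments, two-sided, smallest p 0.333), so no value could pass 0.05. Counts of sites and genes set apart have no test. Nothing in the labels says that replicates are separate cultures, so p-values measure only the spread between these samples. The counting scripts were tested on simulated data. Python 3.11.15, pandas 2.3.3, NumPy 2.4.6 and statsmodels 0.14.6 were used.

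The members, the 23 gene lists and the rules were chosen with earlier results of these data known. Named are, per direction, the 10 sites and 10 genes set apart with the highest lowest percentile, the 10 genes with the largest gap in peaks, the 6 sites with the largest rank shift, set-apart list members (at most 4 a list), and the 6 leading sites of all 4 lists; predicted genes without a proper symbol are passed over. Not all of these are named in the text, and some results are not reported here. List members with more peaks on one side, and bound members named as examples, were chosen after their values were seen. Alternatives were a common score floor of 12.6, the upper 50% of each list, lists of one length, peaks resized to 400 bp, overlap of 50% of both peaks, only exons and UTRs, the authors' nearest gene, the promoter class counted, leaving out each list, and a replicate block.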

Additional observations from a re-analysis of the deposited data

How the results depend on the processing

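Cut to the shortest list, the ratio of bound genes turned to 0.914, the ratio of merged sites was 1 by construction, sites set apart went to 284 (THOC5 OE), genes set apart to 56 and 51, genes with more peaks to 146 and 79 (THOC5 OE and GFP OE), and the difference in intron share turned to -2.70 percentage points. In the upper 50% of each list by score, sites set apart were 316 and 35, genes 79 and 15, genes with more peaks 194 and 17, and sites ranked higher in GFP OE 218. With exons and UTRs only, 169 genes had more peaks in THOC5 OE. Ranked among the common sites, chosen after seeing the data, 184 and 186 sites ranked higher. Leaving out each list in turn, which loosens the rule to 2 lists against 1, gave 1.19 to 1.72 for the ratio of peaks and of sites, 1.17 to 1.36 for bound genes, 1052 to 1903 and 183 to 1271 for sites set apart, 303 to 433 and 67 to 259 for genes set apart, 532 to 809 and 91 to 428 for genes with more peaks, 28 to 344 and 454 to 1011 for rank shifts, and -1.87 to 3.59 for the intron share, which turned without GFP OE replicate 1. The gap of Cfap47 turned to -2 in lists of one length, and that of Atad5 to -1 with the authors' nearest gene. Of the 40 named gene gaps, 14 were lost with the nearest gene (Csmd1 among them, 23 to 0), 24 with exons and UTRs only, 23 in the upper 50% of each list and 11 in lists of one length. With the replicate number as a block, the ratios of peaks, sites and bound genes stayed 1.41, 1.41 and 1.26 with exact p = 0.5, the smallest it allows, and the intron difference 0.859 (exact p = 1). The deviations of same-numbered lists correlated at 0.0731 over sites, 0.112 over sites of lists cut to one length and 0.234 over peaks per gene; the labels tie the numbers to nothing shared, and 2 pairs cannot settle whether they pair the samples. The common score floor, resized peaks, 50% overlap and the promoter class kept the counts within 1.5 times. Library depth cannot be read from the lists, so which weak peaks were within reach of each library is unknown.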
